A study of Mus musculus with 2 samples.

Results

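Trophectoderm genes were followed in E14 cells, a mouse embryonic stem cell (mESC) line, after knockdown of the deubiquitinase USP21. The group held 9 genes, taken by gene symbol from the 23889 symbols in the deposited tables, and all 9 were found. They were the transcription factor genes Tead4, Gata3, Tfap2c, Cdx2, Elf5 and Hand1 and the keratin genes Krt7, Krt8 and Krt18. One library came from E14 cells transfected with a control shRNA (genotype labelled Normal) and 1 from E14 cells transfected with an USP21 shRNA (genotype labelled USP21 knockdown), both harvested on day 3. They are called the control and the knockdown library below. The labels give the mouse strain behind the line as 19/Ola. Both cultures were kept without feeder cells on gelatin in serum medium with LIF, the cytokine that sustains mESC self-renewal, and the labels do not say which USP21 shRNA was used or whether transfected cells were selected. RNA was taken from whole cultures, so fewer cells of a type and less RNA per cell cannot be told apart. With 1 library per group there was no replicate error and no test, and each difference below compares these 2 libraries only.

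The trophectoderm is the outer epithelium of the blastocyst and the source of the trophoblast of the placenta. In outer cells of the morula, low Hippo signalling leaves the co-activator YAP in the nucleus, where it works with TEAD4 to switch on Cdx2 and Gata3, while Oct4 opposes Cdx2 in the inner cell mass from which ES cells derive. TFAP2C and ELF5 act in trophoblast stem cells, HAND1 in trophoblast giant cells and in lateral mesoderm, and the keratins build the filaments of the simple epithelium. ES cells pass into trophoblast only rarely, and the promoter of Elf5 is known to be methylated in them.

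Expression was given as FPKM, fragments per kilobase of transcript and per unit of sequencing depth, which allows a comparison of levels between genes. Differences are given as the log2 ratio of the knockdown over the control library after 0.1 FPKM was added to both values, a scale on which the differences of low genes come out too small. A gene is called expressed where it reached 1 FPKM in either library. Usp21 itself had an FPKM of 26.2 in the control and 3.49 in the knockdown library, a log2 ratio of -2.87. The ES cell markers Pou5f1, Nanog, Sox2 and Zfp42 were between 241 and 868 FPKM in the control and between 218 and 752 in the knockdown library. The control library was about 1.23 times as deep as the other, judged from the steps of 1 fragment among 1439 low genes. Rescaling both libraries to the same sum of FPKM moved every log2 ratio of well-expressed genes up by about 0.18. Without rescaling the median log2 ratio over the 15316 symbols that reached 0.1 FPKM in either library was 0.0046.

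The 9 genes formed a high and a low tier. Of all symbols in the tables, 16.4% stood above Krt8 in the control library and 59.6% above Cdx2. Krt8, Krt18, Tead4 and Tfap2c were the 4 highest in both libraries and held 97.1% of the group's summed FPKM in the control and 93.4% in the knockdown library. Gata3, Hand1, Krt7, Cdx2 and Elf5 stood below 0.6 FPKM in the control library. In the knockdown library Gata3 and Hand1 were above 1 FPKM and the other 3 of that tier stayed below 0.5. Of the 6 expressed members, 2 were at least 2-fold higher (Hand1 and Gata3), beside 2.30% of the 11927 expressed symbols. No member was at least 2-fold lower, beside 2.03% of symbols. Hand1 and Gata3 passed the floor only in the library where they were higher, and a gene so low in the other library has to differ in order to pass. The direction of such counts over all symbols moved with scaling, from 274 higher and 242 lower by 2-fold to 464 (3.86%) and 154 (1.28%) of 12014 symbols after rescaling. With the floor set instead on the mean of both libraries (at least 0.5 FPKM, added after the data were seen), the count was again 2, beside 2.37% of 12686 symbols higher and 2.11% lower. At 1.5-fold, Krt8 was added as the 1 lower gene (6.46% of symbols lower), while Hand1 and Gata3 were the 2 higher ones (7.77% of symbols higher). These shares also stand beside the counts of the lists below. After rescaling the shares past 1.5-fold were 14.2% higher and 3.87% lower, which are the ones to read beside the rescaled counts.

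**Figure D1:**
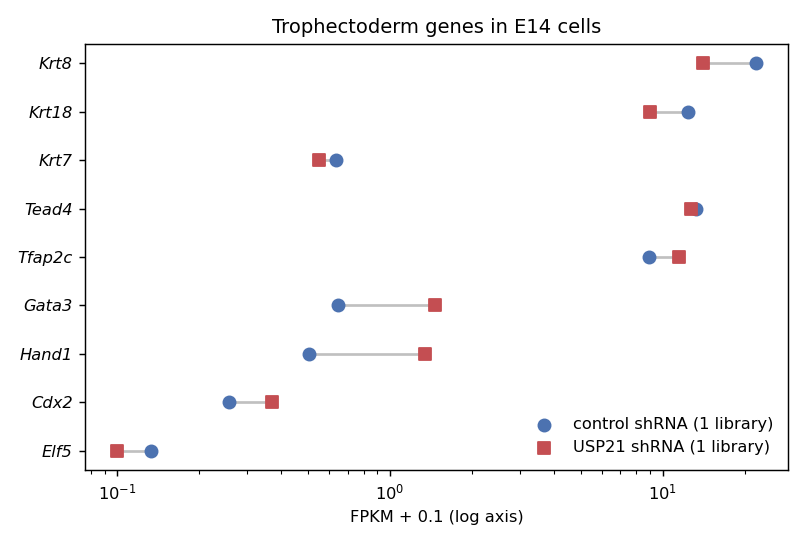
FPKM + 0.1 on a log axis for the 9 trophectoderm genes, with a circle for the control and a square for the knockdown library (1 library each, so no error bar). Gata3 and Hand1 lie to the right in the knockdown library (1.36 and 1.25 FPKM against 0.547 and 0.403), Krt8 and Krt18 to the left (13.9 and 8.92 against 21.97 and 12.3).

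Promoter sequences are shown for 4 genes, the regulators Gata3 (higher) and Cdx2 (required for the trophectoderm) and the keratins Krt8 and Krt18 (both lower). They are RefSeq windows on GRCm38.p6 that run from 250 bases before to 50 bases after the annotated start, printed 5′ to 3′ on the gene's strand, and 6 of the 9 genes (7 windows) were matched in that table. The windows lie at chr2:9878551-9878850 (minus strand) for Gata3, chr5:147307200-147307499 (minus strand) for Cdx2, chr15:102004293-102004592 (minus strand) for Krt8 and chr15:102027966-102028265 (plus strand) for Krt18. The windows of Gata3, and of Krt7 and Elf5 among those not shown, start within their GENCODE genes, whose annotated 5′ ends lie further upstream. Capitals mark the letters of 5 motifs searched on both strands, which may overlap. These were GGAATG for TEAD factors, then GCCNNNGGC for AP-2 factors such as TFAP2C, then AGATAA for GATA factors, then TATAAA for the TATA box, and GGGCGG for the GC box.
Gata3: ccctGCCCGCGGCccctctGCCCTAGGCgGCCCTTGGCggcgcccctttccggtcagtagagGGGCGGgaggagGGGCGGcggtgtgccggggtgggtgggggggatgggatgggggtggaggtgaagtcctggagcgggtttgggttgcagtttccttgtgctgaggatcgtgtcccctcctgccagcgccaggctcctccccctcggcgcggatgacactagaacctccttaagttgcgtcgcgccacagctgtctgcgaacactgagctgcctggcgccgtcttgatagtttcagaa
Cdx2: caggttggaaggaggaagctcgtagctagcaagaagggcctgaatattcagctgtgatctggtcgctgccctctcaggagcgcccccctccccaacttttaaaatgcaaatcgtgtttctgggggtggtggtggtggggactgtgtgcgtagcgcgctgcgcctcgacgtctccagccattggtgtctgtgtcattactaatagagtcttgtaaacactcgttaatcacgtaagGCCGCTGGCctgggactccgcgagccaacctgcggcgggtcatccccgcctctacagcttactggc
Krt8: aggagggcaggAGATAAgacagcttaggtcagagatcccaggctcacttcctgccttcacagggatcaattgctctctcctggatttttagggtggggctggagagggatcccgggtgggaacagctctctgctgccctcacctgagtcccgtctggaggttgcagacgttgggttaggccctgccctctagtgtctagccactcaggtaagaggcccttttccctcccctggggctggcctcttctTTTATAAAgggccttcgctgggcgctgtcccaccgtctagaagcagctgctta
Krt18: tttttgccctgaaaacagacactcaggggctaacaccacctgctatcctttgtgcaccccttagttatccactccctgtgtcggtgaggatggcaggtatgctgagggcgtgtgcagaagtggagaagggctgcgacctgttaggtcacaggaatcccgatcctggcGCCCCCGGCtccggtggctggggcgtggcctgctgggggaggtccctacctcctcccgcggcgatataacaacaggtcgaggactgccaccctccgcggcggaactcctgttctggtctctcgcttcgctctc

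The AP-2 letters occurred in windows of 4 of the 6 genes with a sequence (7 windows in all), against 16.6% of all 32851 single windows of 300 bases. The Gata3 window held 3 matches, the Krt7 window 2, and the Cdx2 and Krt18 windows 1 each. The GC box, found in 35.7% of all windows, was in those of Gata3 and Krt7. The TEAD letters (14.7% of all windows) were in 1 of the Elf5 windows only, the GATA letters (11.2%) and the TATA box (13.6%) in that of Krt8 only, where the TATA letters overlap the annotated start. A match is a string of letters and not a measured binding site. The AP-2 letters are rich in G and C, as were the windows. Those of Gata3, Krt7, Krt18 and Cdx2 had 67.3%, 66.3%, 61.3% and 57.3% GC. The windows of Elf5 and Krt8 lay between 55.3% and 60.7%, beside a median of 52.7% over all windows. Whether AP-2 letters exceed what this GC content gives was not tested. The windows also differed in CpG number, with 22 in Gata3, 18 in Cdx2 and 17 in Krt18 but 6 in Krt8, beside a median of 7 over all windows.

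Hand1 had the highest log2 ratio of the group. Hand1, a basic helix-loop-helix factor of trophoblast giant cells and lateral mesoderm (chromosome 11, 57828705 to 57832818 of GRCm38, 2 exons), had an FPKM of 0.403 in the control and 1.25 in the knockdown library, a log2 ratio of 1.42. With the annotated transcript length of 1904 bases these values correspond to about 22 and 54 fragments. Without the added 0.1 FPKM the log2 ratio was 1.63, and counting error alone would put that value between 0.87 and 2.40 (exact binomial interval, 95%). Variation between cultures is not in that interval, and all counting intervals below are likewise for the ratio without the added 0.1. Among the 1181 symbols of similar level (0.4 to 0.9 FPKM on average), the 5th and 95th percentiles of the log2 ratio were -1.07 and 1.09, so Hand1 lay beyond the upper one.

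Gata3 followed with a log2 ratio of 1.18. Gata3, a zinc finger factor that TEAD4 switches on in the trophectoderm in parallel with Cdx2 (chromosome 2, 9857078 to 9890034, 6 exons), had 0.547 FPKM in the control and 1.36 in the knockdown library, or about 50 and 99 fragments. Without the added 0.1 the log2 ratio was 1.32, with a counting interval of 0.80 to 1.82. Gata3 also lay beyond the 95th percentile of 1.09 for symbols of its level, by a small margin. The gene overlaps 3 other annotated genes. Of these, 4930412O13Rik on the opposite strand and 9230102O04Rik on the same strand are in the tables, both at 0 in the control library and at 0.0147 and 0.0971 FPKM in the other. Whether the counting used strand is not given in the sources used here, so reads of Gata3 and of an antisense partner cannot be told apart.

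The other regulators differed less. Cdx2, the caudal homeobox factor required for the trophectoderm (chromosome 5, 147300805 to 147307270, 3 exons), had 0.157 FPKM in the control and 0.268 in the knockdown library. These levels correspond to about 10 and 14 fragments, whose counting interval around a log2 ratio of 0.77, -0.47 to 2.13, includes 0, so a difference in Cdx2 was not detectable at this depth. Tfap2c, the AP-2γ gene (chromosome 2, 172549593 to 172558622, 7 exons), had 8.83 and 11.4 FPKM, a log2 ratio of 0.36 (0.22 to 0.51 by counting error alone), inside the percentiles of -0.53 and 0.62 for the 2241 symbols of its level. Tead4 (chromosome 6, 128224288 to 128300823, 12 exons) had 13.2 and 12.6 FPKM, a log2 ratio of -0.067 that became 0.11 after rescaling. Elf5 (chromosome 2, 103411688 to 103450989, 7 exons) was at 0.033 FPKM in the control library, about 2 fragments, and is listed at 0 in the knockdown library, so no ratio is given. Krt8 was 140.1 times as high as Cdx2 in the control library and 52.0 times in the knockdown library. The order of the regulators was therefore Tead4, Tfap2c, Gata3, Hand1, Cdx2 and Elf5 in both libraries.

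**Figure D2:**
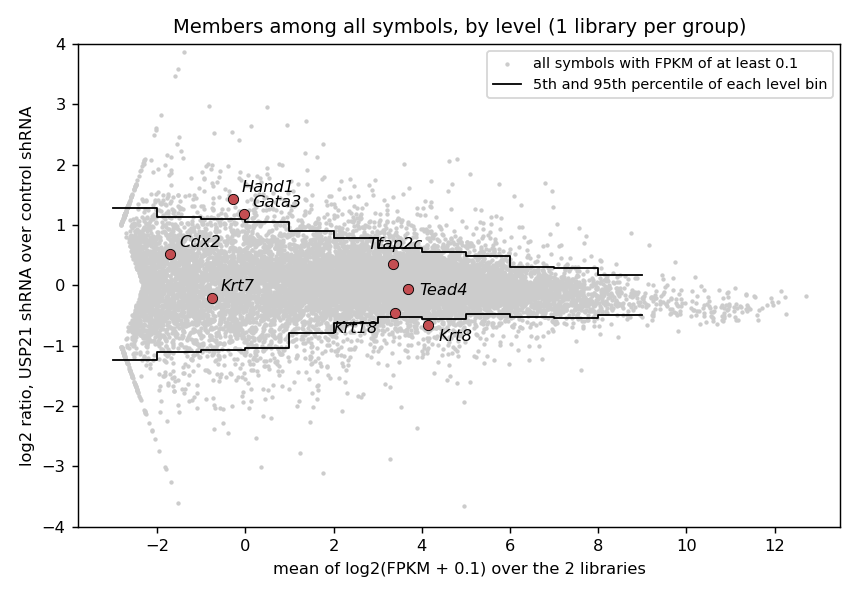
Log2 ratio of USP21 shRNA over control shRNA against the mean log2(FPKM + 0.1) of the 2 libraries, with the members past an FPKM of 0.1 as red points, all other symbols in grey (4 symbols lie beyond the axis) and lines at the 5th and 95th percentile of each well-filled level bin. Hand1 and Gata3 lie above the upper line and Krt8 below the lower one, while Cdx2, Krt7, Tfap2c, Tead4 and Krt18 lie between the lines.

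Krt8 and Krt18 encode a type II and a type I keratin that pair to form the filaments of simple epithelia. They are neighbours on chromosome 15 (101996698 to 102004482 on the minus strand and 102028180 to 102032027 on the plus strand). Between their 5′ ends lie 23698 bases, with no annotated gene wholly within that stretch. The lincRNA gene Gm36026 on the opposite strand (102004212 to 102009442) overlaps Krt8 and reaches into it. Gm36026 has no value here, and whether the counting used strand is not given, so its reads and those of Krt8 cannot be told apart. Krt8 had 21.97 FPKM with the control shRNA and 13.9 after knockdown, and Krt18 had 12.3 and 8.92. Both were lower, with log2 ratios of -0.65 and -0.46. At about 1213 and 618 fragments for Krt8 and 498 and 290 for Krt18, counting error alone would put these between -0.80 and -0.52 and between -0.68 and -0.25. Krt8 lay below the 5th percentile of -0.56 for the 2109 symbols of its level, whereas Krt18 lay inside that of -0.53. The ratio of Krt8 to Krt18 was 1.79 and 1.56. After rescaling the log2 ratios were -0.48 and -0.29, so that Krt8 was then less than 1.5-fold lower. Of the 31-base words of the Krt8 transcript 36.0% also occur in other annotated genes, led by the pseudogene Krt8-ps, and 11.4% of those of Krt18 do. How such fragments were assigned is not given in the sources used here. Krt7, the third keratin of the group (chromosome 15, 101411043 to 101430313), was far lower, at 0.534 and 0.448 FPKM, a log2 ratio of -0.21.

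The lower values extended to the other keratins of these cells. Of the 52 keratin genes in the tables by symbol (a list made after the data were seen), 7 were expressed, the members Krt8 and Krt18 among them, and all 7 were lower in the knockdown library, with and without rescaling. Of all expressed symbols 49.6% had a lower value, and 29.0% did after rescaling. Krt42 had 25.6 FPKM in the control and 11.7 in the knockdown library, Krt17 had 14.6 and 5.77, and Krt19, another type I keratin of simple epithelia, had 6.36 and 2.13. Their log2 ratios of -1.12, -1.32 and -1.53 were larger in size than those of Krt8 and Krt18. These 3 were at least 2-fold lower. After rescaling Krt17 and Krt19 still were, and Krt42 was at -0.95. Krt10 (1.02 and 0.770 FPKM) and Krt222 (1.04 and 0.691) passed the floor only in the control library. Their lower values were thus fixed by the floor. The shared direction rests on the other 5 expressed keratins, Krt8 and Krt18 among them. Below the floor the direction was not shared by all. Most of the keratins there that reached 0.1 FPKM in either library were lower, such as Krt16 (0.725 and 0.162) and Krt14 (0.224 and 0.0148). Krt20 (0.209 and 0.486), Krt4 (0.256 and 0.282) and Krt33a (0.108 and 0.128) were higher.

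**Figure D3:**
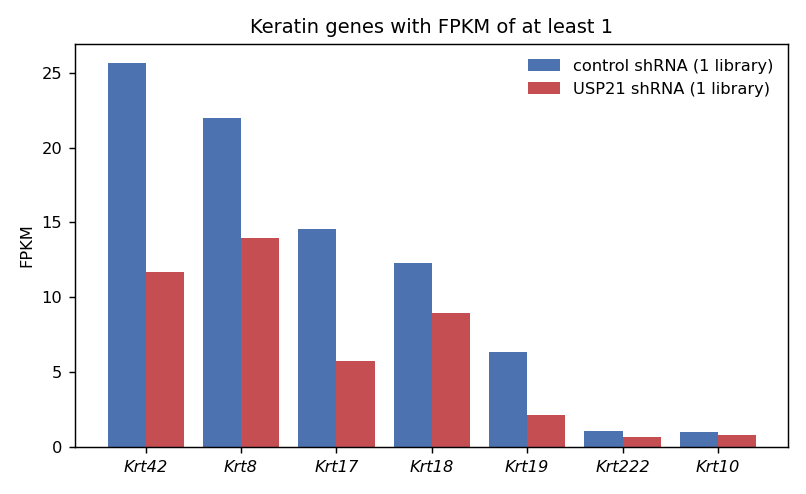
FPKM of the 7 expressed keratin genes, as paired bars from 0 for the control and the knockdown library (1 library each, no error bars). In every pair the second bar is shorter, from 25.6 against 11.7 for Krt42 to 1.02 against 0.770 for Krt10. Krt10 and Krt222 reached 1 FPKM only in the control library, so their second bars had to be shorter.

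Transcript length moved with the log2 ratio over all genes (rho 0.32 by Spearman's method over 11378 genes, a description across genes and not across replicates), and keratin transcripts are short, Krt18 with 1437 bases and Krt8 with 1958. At these lengths the trend lay at -0.10 and -0.055. With the trend subtracted the log2 ratios were -0.36 for Krt18 and -0.60 for Krt8, and the median over the 7 keratins was -0.60 in place of -0.65. Hand1 and Gata3 were at 1.48 and 1.16 after that correction.

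Epithelial junction genes, the other structural part of the trophectoderm, were mixed. Of 22 genes in the list all were expressed, and 5 were at least 1.5-fold lower and 1 higher, with a median log2 ratio of -0.036. After rescaling 4 were lower and 2 higher, beside 3.87% and 14.2% of all expressed symbols. The lower ones were the tight junction genes Cldn7 (4.80 and 2.15 FPKM), Cldn3 (1.90 and 1.06) and Tjp3 (2.24 and 1.05), the desmosome gene Dsp (3.88 and 2.46) and the sodium pump subunit Atp1b1 (93.4 and 52.0). The higher one was Cgn, the gene of the tight junction protein cingulin (4.42 and 6.82), whose log2 ratio of 0.61 came to 0.51, within 1.5-fold, with the length trend subtracted. E-cadherin (Cdh1) had 40.7 and 60.4 FPKM.

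The relatives of the 6 transcription factors showed which paralogues these cells express. Of the TEAD factors Tead2 was the highest, with 26.8 FPKM in the control and 48.1 in the knockdown library, and Tead1 had 12.7 and 23.4. Tead3 had 1.16 and 2.04. All 3 were higher in the knockdown library (log2 ratios 0.84, 0.87 and 0.77), and Tead1 came to 0.59 with the length trend subtracted. Tead4 was at -0.067, or 0.11 after rescaling. Of the ETS relatives of Elf5, Elf3, a factor of epithelial genes, had 32.8 and 14.7 FPKM, a log2 ratio of -1.16, and was 2-fold lower or more before but not after rescaling (-0.98). Elf1 had 8.98 and 12.7 FPKM, Elf2 11.3 and 13.0 and Elf4 2.71 and 3.14. Among the GATA genes, Gata6 (8.60 and 10.8 FPKM) and Gata4 (5.70 and 5.78), regulators of primitive endoderm, stood above Gata3, and Gata2, its partner in trophoblast, had 0.507 and 0.218. Cdx1 had 1.08 and 1.94 FPKM, a log2 ratio of 0.79, and Cdx4 had 0.322 and 0.5998. Of the AP-2 genes other than Tfap2c none reached 1 FPKM, with Tfap2a at 0.401 and 0.296.

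In the Hippo pathway, which controls TEAD4 in the embryo, 21 of 22 listed genes were expressed. At least 1.5-fold higher were 4 of them, Tead1, Tead2, Tead3 and the kinase gene Lats2 (1.28 and 3.38 FPKM, log2 ratio 1.34), and none was lower by as much. After rescaling 6 were higher and none lower, beside 14.2% and 3.87% of all expressed symbols. The co-activator Yap1 had 61.5 and 68.2 FPKM, and its relative Wwtr1 (TAZ) 14.4 and 9.84. The YAP target genes Ctgf (14.8 and 12.7) and Cyr61 (20.3 and 21.5) differed by less than 1.5-fold. A further target on the list, Ankrd1, was under the floor, at 0.145 and 0.339 FPKM (log2 ratio 0.84).

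Of 20 other genes of trophectoderm and trophoblast stem cells, 15 were expressed, and 4 were at least 1.5-fold higher and 3 lower, with a median log2 ratio of 0.30. After rescaling these counts were 6 and 2, beside 14.2% and 3.87% of all expressed symbols. Higher were Fgfr2, the receptor for the FGF4 that sustains trophoblast stem cells (0.456 and 1.70 FPKM, log2 ratio 1.69), the endocytic receptor gene Lrp2 (9.39 and 23.1, 1.29, or 0.90 with the length trend subtracted), the placental homeobox gene Esx1 (0.773 and 1.70, 1.05) and Tspan8 (1.05 and 1.72, 0.66). Fgfr2 and Esx1 passed the floor only in the knockdown library. Lower were the galectin gene Lgals3 (5.44 and 1.66, -1.66), Krt19 and Ppp2r2c (6.07 and 3.84, -0.65). Eomes, the T-box factor of trophoblast stem cells that is also a mesendoderm gene, had 1.20 and 1.40 FPKM. Genes of this list therefore lay on both sides, as did the 9 members. Among the 8 members that reached 0.1 FPKM in either library, 4 were higher and 4 lower. Their median log2 ratio was 0.15, beside 0.0046 over all symbols past the same filter. Of the 6 expressed members 3 were lower, beside 49.6% of expressed symbols. After rescaling 2 were, beside 29.0%, as Tead4 changed sign. The split of the members was thus near that of all symbols.

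**Figure D4:**
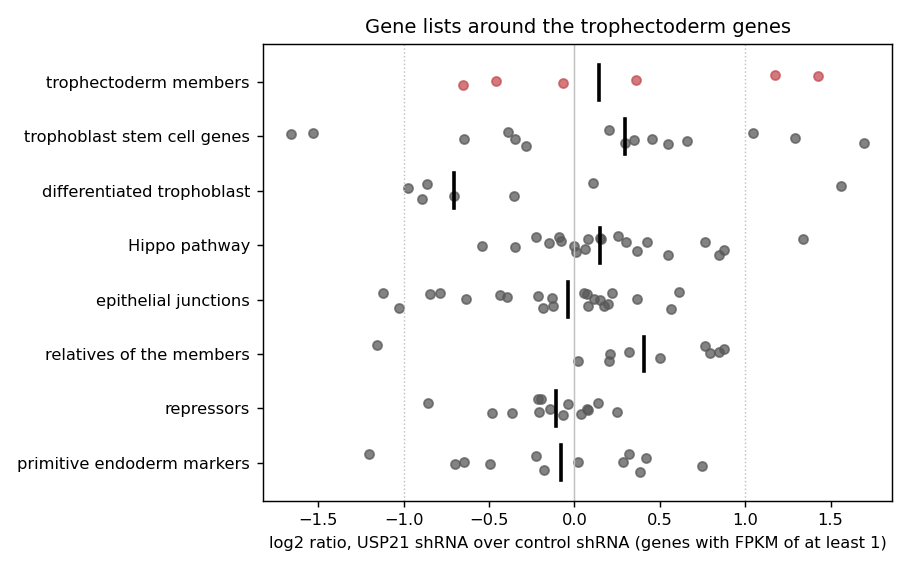
Log2 ratio of USP21 shRNA over control shRNA for the expressed genes, 1 point per gene in each of the 8 lists drawn, which leave out the keratin, mesoderm and fibroblast lists, with a bar at the list's median, a line at 0 and dotted lines at 2-fold. The members in red run from -0.65 (Krt8) to 1.42 (Hand1), and the medians of these 8 lists run from -0.70 for differentiated trophoblast to 0.41 for the relatives of the members.

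The members are not confined to trophectoderm, and markers of the other cells that use them were read beside them. Of 13 mesoderm markers 3 were expressed (Bmp4 with 17.7 and 12.2 FPKM, Eomes, and Mixl1 with 1.06 and 0.613), and the summed FPKM of the list was 22.8 in the control library and 17.7 in the other. T had 0.0931 and 0.211 FPKM, Kdr 0.238 and 0.562 and Tbx6 0.282 and 0.609, while Mesp1 had 0.259 and 0.240 and Hand2 was at 0.0092 and 0. All 12 primitive endoderm markers were expressed, with a summed FPKM of 162.9 and 182.4 and a median log2 ratio of -0.079. The basement membrane genes Lamb1, Col4a1 and Col4a2 made up 104.5 and 133.2 of these sums, and the other 9 markers 58.5 and 49.2. Of these Pdgfra (2.48 and 4.22) was at least 1.5-fold higher, and Sox7 (4.68 and 1.97), Hnf4a (1.33 and 0.781) and Amn (6.94 and 4.39) were lower. Hnf4a and, among the mesoderm markers, Mixl1 passed the floor only in the control library, so both had to be lower. After rescaling 2 of all 12 were higher (Pdgfra and Col4a2) and 1 lower (Sox7), beside 14.2% and 3.87% of all expressed symbols. With the length trend subtracted Pdgfra (0.56) and Amn (-0.57) were within 1.5-fold. The log2 ratios of Lamb1, Col4a1 and Col4a2 then went from 0.28, 0.39 and 0.42 to 0.14, 0.21 and 0.24. The 12 fibroblast markers summed to 196.1 and 177.1 FPKM, nearly all of it Vim (174.1 and 167.0), with Thy1 at 17.3 and 5.29, Col3a1 and Dcn below 0.03 in both libraries and Lum listed at 0. The part of other cell types in the values of Hand1, Gata3 and the keratins was not tested. Of 19 listed genes of differentiated trophoblast, 6 were at 0 in both libraries (Tpbpa, Prl3d1, Prl3b1, Prl2c2, Ctsq and Hsd3b6). Of the 7 expressed ones, 5 had a lower and 2 a higher value in the knockdown library, with and without rescaling. Beside them, 49.6% of all expressed symbols had a lower value, and 29.0% after rescaling. Past 1.5-fold 1 was higher and 4 lower, or 1 and 3 after rescaling, beside 14.2% and 3.87% of all expressed symbols. Others were above 0 but under the floor, such as Gcm1 (0.0611 and 0.256 FPKM) and Plac1 (0.0867 and 0.215).

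Factors that hold trophectoderm genes down in ES cells were also compared. All 14 listed were expressed, and 1 was at least 1.5-fold lower, Nanog (467 and 258 FPKM, log2 ratio -0.86, or -0.68 after rescaling). Pou5f1, the Oct4 gene that opposes Cdx2, had 868 and 752 FPKM, and Setdb1, whose product silences trophectoderm genes in ES cells, had 21.4 and 20.4. Dnmt1 and Uhrf1, which maintain the DNA methylation that covers Elf5, had 76.5 and 80.9 and 160.6 and 165.0 FPKM. The PRC1 ligase gene Rnf2 had 75.6 and 54.0, and the PRC2 genes Eed, Ezh2 and Suz12 had log2 ratios between -0.22 and -0.038. Except for Nanog the 14 genes stayed within 1.5-fold, also after rescaling.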

How the data were processed

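Total RNA of 2 E14 cultures, a control and an USP21 knockdown, was made into libraries by Illumina protocols and sequenced. The authors deposited 1 FPKM value per symbol and library, and the submitters' processing notes name CASAVA 1.8.2, TopHat2 2.0.14, Cufflinks 2.2.1 and mm9. The annotation, strandedness and treatment of fragments that map to several genes are not given in the sources used here. The files hold no counts, so depth was estimated as below. The sum of FPKM was 613617 (control) and 543206 (knockdown).

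Log2 ratios were computed with a pseudocount of 0.1, and calls were differences of at least 2-fold or 1.5-fold among symbols that reached 1 FPKM in either library. Percentiles were taken over symbols in bins of 1 log2 unit of mean level. Coordinates and transcript lengths (transcript with the longest coding sequence) came from GENCODE M21 (GRCm38), which is not the build of the files, and 95.4% of symbols with FPKM of at least 1 had a length. The length trend was a lowess fit with a span of 0.3. Fragment numbers were approximated from the lowest mode of FPKM times length over 2056 genes with 1 transcript of 1500 to 6000 bases (about 28200000 and 22600000 fragments in the control and knockdown libraries). They assume the GENCODE length, were not made for Krt7, whose longest transcript carries repeats, and their intervals cover counting error only. Scripts were tested on simulated data. The software was statsmodels 0.14.6 (lowess), scipy 1.17.1 (exact binomial intervals), pandas 2.3.3, numpy 2.4.6, matplotlib 3.10.9 (plots) and Python 3.11.15.

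The genes named are all members, Usp21, the expressed genes of each list past 1.5-fold (where fewer than 2 passed, the 2 with the highest mean), and every expressed keratin, repressor or relative that the text needs. Other genes were named for their role after their values were seen. Alternatives were other pseudocounts, FPKM floors, rescaling to equal sums, centring on the median and the length correction. Members and lists were chosen with earlier results of these data known. One listed symbol, Stra13, was dropped because this symbol can also name another gene.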

Additional observations from a re-analysis of the deposited data

How the results depend on the processing

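With a pseudocount of 1 neither Hand1 nor Gata3 was 2-fold higher (0 members past 2-fold, log2 ratios of 0.68 and 0.61), and 208 symbols were past 2-fold in place of 516. An FPKM floor of 5 left 0 members past 2-fold, 1 past 1.5-fold (Krt8) and 216 symbols past 2-fold, and a floor of 0.1 gave 980 symbols. The median log2 ratio of the members, 0.15, was 0.32 after rescaling, 0.035 with a pseudocount of 1 and -0.067 without a filter, which adds Elf5. Under the 5 alternatives for single genes the sign changed only for Tead4, from -0.067 to 0.11 after rescaling. A pseudocount cannot change a sign, centring moved ratios by 0.0046 and rescaling moved them only up. A constant sign of the genes with higher values, Cdx2 among them, therefore says little. Krt8 and Krt18 stayed lower after rescaling, at -0.48 and -0.29. Krt7 came to -0.063, a value too small to read as a direction. Low levels limit Cdx2 and Elf5 most. No paired analysis was possible because each group has 1 library, and for the same reason no library could be left out. The floor on the mean of both libraries, added after the data were seen, gave 569 symbols past 2-fold.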

Other observations

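Of 19 genes of differentiated trophoblast, 7 were expressed and 6 were listed at 0 in both libraries. Among the 7 were imprinted genes with a role in the placenta, and these lay on both sides. Peg10, a paternally expressed gene needed for placenta formation, had 72.05 FPKM in the control and 212.9 in the knockdown library, a log2 ratio of 1.56. The maternally expressed growth inhibitors Cdkn1c (26.1 and 13.3 FPKM, -0.97) and Phlda2 (56.3 and 34.6, -0.70) were lower. Hopx (6.67 and 3.55) and Rhox9 (2.01 and 1.06) were also at least 1.5-fold lower, while Ascl2, the factor of the spongiotrophoblast, had 2.61 and 2.82. Phlda2 was at -0.53 after rescaling and at -0.47 with the trend on transcript length subtracted, within 1.5-fold in both. Gcm1, the syncytiotrophoblast regulator, had 0.0611 and 0.256 FPKM, both under the floor.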
